A study of Mus musculus with 30 samples.

Results

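Infarcted hearts were compared with sham-operated hearts 4 days after the operation. The comparison used the 10 libraries of that day, 5 in each group, out of 30 libraries in the series, and took as its members the 14410 of 43629 annotated genes that passed a filter on low counts. All mice were wild-type C57BL/6J. In the infarct group (MI) the mice were anaesthetised with isoflurane, the chest and pericardium were opened and a coronary artery was ligated, and in the sham group the chest was opened in the same way without the ligation. RNA of the heart was sequenced as directional libraries with paired reads, and the labels state neither the part of the heart that was sampled, nor the age or sex of the mice, nor whether animals were pooled. The replicates are given as separate samples of a group without a statement that each came from its own animal, so that p-values then measure only how these samples vary, which may be technical.

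Tying off a coronary artery kills the muscle downstream of it. The dead muscle is then cleared by neutrophils and monocytes that leave the blood and by the macrophages that monocytes become, while fibroblasts divide, contract and lay down collagen that turns the wound into a scar. Surviving heart muscle cells carry a higher load, and a stressed heart muscle cell is known to return in part to a fetal gene programme and to burn less fat. In mice the clearing and the building of scar overlap in the first week.

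On the fourth day infarcted hearts held more transcript of genes of phagocytic macrophages, of collagen and its crosslinking enzymes, of the actin and tubulin cytoskeleton and of cell division. They held less transcript of the enzymes that burn fat, of the respiratory chain and of the ion channels and calcium pumps of heart muscle. Levels are given in counts per 1000000 counts of a library (CPM, after scaling by trimmed-mean factors), and a row of 5 values is for replicates 1 to 5 of a group in that order. Genes were called where the edgeR quasi-likelihood test gave a p below 0.05 after Benjamini-Hochberg adjustment across 14410 genes. Of these, 3968 (27.5%) were higher and 3629 (25.2%) lower in infarct libraries, 52.7% in all, and the median log2 fold change over all genes tested was 0.01. A change of at least 2-fold was more often upward, with 1432 genes higher (9.94%) and 480 lower (3.33%). At 4-fold there were 373 higher and 19 lower, and at 8-fold 72 higher and 2 lower. Every infarct value lay above every sham value for 19.7% of the genes tested and below it for 17.8%.

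**Figure D1:**
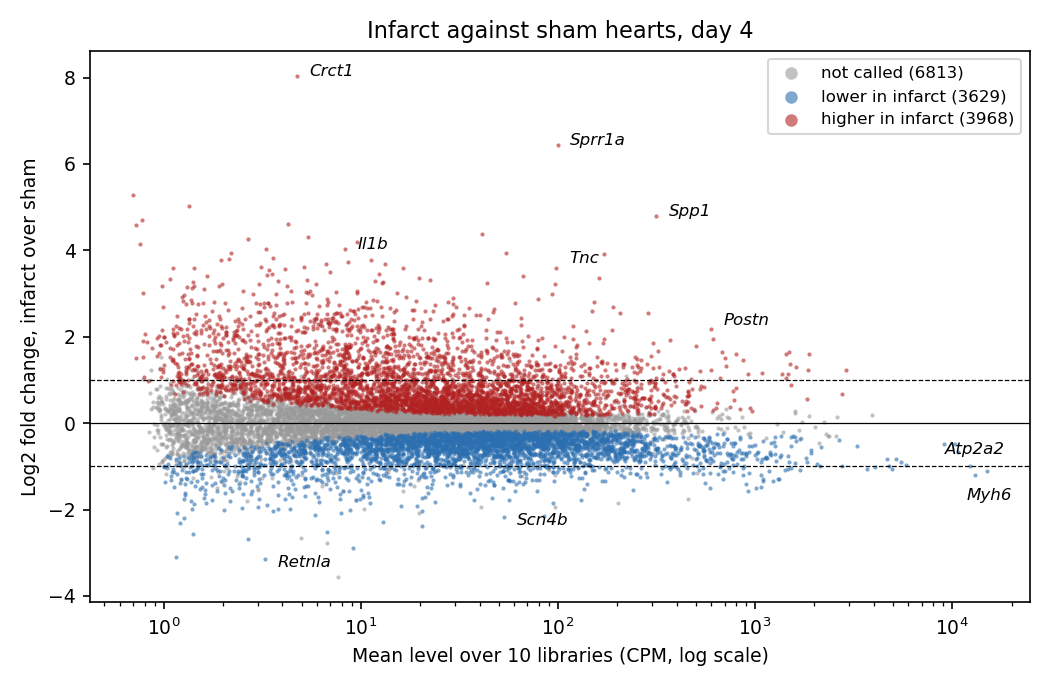
Log2 fold change (infarct over sham, vertical axis) against the mean level over the 10 libraries in CPM (horizontal, log scale) for the 14410 genes tested. Genes called higher (3968) and lower (3629) are coloured, and dashed lines mark a change of 2-fold. The called genes with the largest changes lie above 0.

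Library totals ran from 8491949 to 11532784 counts, and 18744 to 20485 genes had at least 1 count. On the first principal component, which held 66% of the variance, the 5 infarct libraries scored 29.7 to 51.7 and the 5 sham libraries -53.2 to -24.5. Several libraries stood apart in transcripts of other tissues. Sham replicates 2 and 3 held the lung genes Scgb1a1 at 161 and 370.4 CPM and Sftpc at 21.4 and 44.5 CPM, where no other library passed 0.996 CPM of Sftpc. The same pair was high in Adipoq of fat cells (30.6 and 69.3 CPM), in Ighm of B cells (195 and 526 CPM) and in Upk3b of the mesothelium (34.8 and 72.7 CPM). Infarct replicate 2 held the least of the atrial gene Sln, 23.3 CPM against 115 to 200.1 CPM in the other infarct libraries and 62.6 to 225 CPM in sham libraries. Infarct replicate 3 held thymic and T-cell transcripts (Dntt at 2.39 CPM), sham replicate 1 the most haemoglobin (Hbb-bs at 1416 CPM), and infarct replicate 4 the least of the very long heart transcript Ttn (777 CPM). Summed over the 8 markers of ventricular muscle, the infarct libraries held 32725 to 42667 CPM and the sham libraries 58934 to 73408 CPM, with no marker at 0. Summed over 12 lung markers they held 101 to 162 and 209 to 765 CPM. Hopx, which heart muscle also makes, gave most of that sum in every library but sham replicate 3 (115, 154, 122, 139 and 94.8 CPM in infarct and 207, 316, 224, 299 and 323 CPM in sham libraries). All 12 had counts in sham replicates 2 and 3 while 3 to 8 of them were at 0 in each other library. Fewer cells of a type and less RNA per cell cannot be told apart in RNA from whole tissue.

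**Figure D2:**
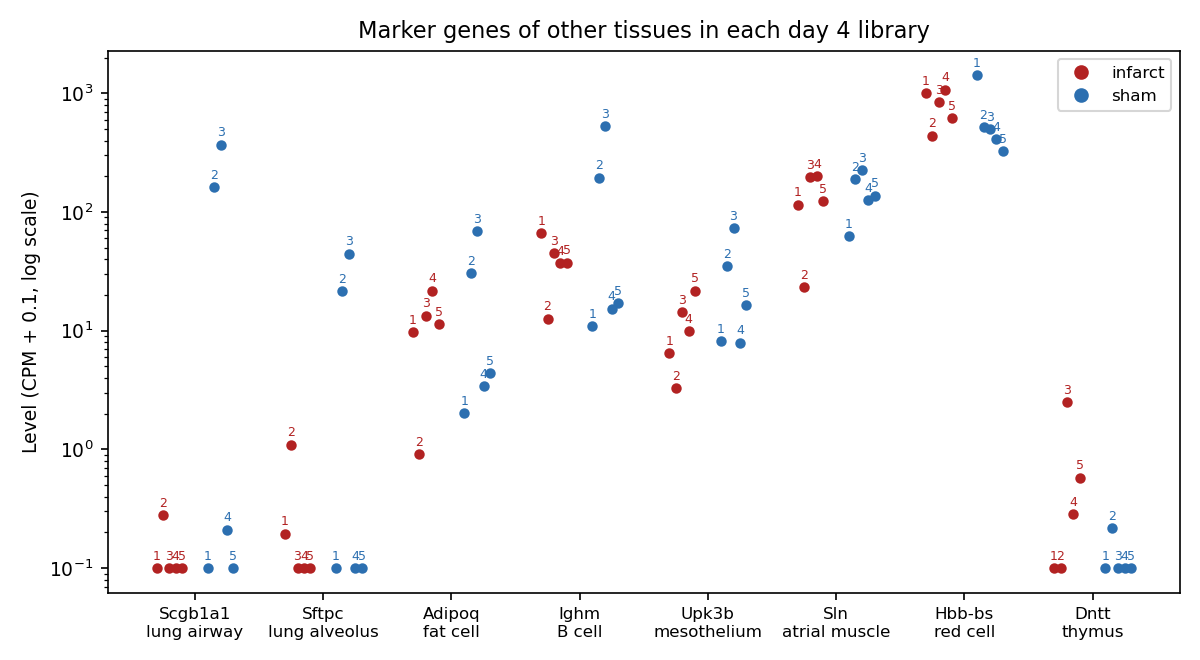
Level of 8 marker genes in each of the 10 libraries (CPM plus 0.1, log scale), infarct replicates as red and sham replicates as blue points labelled with the replicate number. Sham replicates 2 and 3 are highest for Scgb1a1, Sftpc, Adipoq, Ighm and Upk3b.

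Without sham replicates 2 and 3 the counts over all genes were 3959 higher and 3456 lower, and at least 2-fold 1830 and 556. In lists of genes that these libraries hold in excess the medians moved: the median log2 fold change of the 8 tested adipocyte genes went from -1.07 to 1.81, of the B-cell genes from -0.53 to 1.29, of the mesothelial genes from -0.71 to 0.41 and of the lymphocyte and dendritic cell genes from 0.00 to 0.94. The results below are given with all 10 libraries. For called genes named below, the value without this pair is given where the call ended or the fold change moved over 1.5 times. Crct1 is excepted, for which the range over single libraries left out is given.

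The stress response of heart muscle held the gene with the largest fold change of all listed genes. Of 25 tested genes 20 rose and none fell, against 27.5% higher over all genes, with a median log2 fold change of 1.13. Sprr1a (ENSMUSG00000050359, chr3:92483952-92485895 in GRCm38), a small proline-rich protein first known from skin and made by stressed heart muscle cells, read 250.1, 172, 166, 184 and 213 CPM in infarct and 0.225, 3.15, 1.43, 2.43 and 4.04 CPM in sham libraries. The lowest infarct value stood far above the highest sham value, and the fitted change was 87.3-fold (log2 6.45 ± 0.35 SE, adjusted p = 2.17e-07). Gdf15, a circulating stress hormone of the TGF-beta superfamily, read 28, 24.7, 14.6, 28.3 and 17 CPM after infarction and 4.28, 2.45, 0.238, 1.11 and 2.02 CPM after sham operation. It was 11-fold higher (adjusted p = 4.83e-05), and the groups did not overlap. Nmrk2, a muscle kinase that makes NAD from nicotinamide riboside, read 95.9, 106, 59.1, 81 and 51.1 CPM in infarct and 8.67, 6.89, 9.05, 8.96 and 8.07 CPM in sham libraries, a 9.42-fold rise (adjusted p = 1.33e-07). The natriuretic peptides, hormones that lower blood pressure, rose less: Nppb was 3.44-fold higher at 779 ± 194 against 226 ± 79.7 CPM (mean ± SD, n = 5). Nppa, which atria also make, rose 2.46-fold, from 929 ± 288 in sham to 2287 ± 599.7 CPM in infarct libraries (SD, n = 5). Its groups overlapped: infarct replicate 2, also lowest in the atrial gene Sln, read 1238 CPM and sham replicate 3 read 1298 CPM. Stretch- and strain-responsive genes rose as well, among them Ankrd1 (3-fold), a repressor of cardiac genes at the sarcomere, and Xirp2 (2.19-fold), an actin-binding protein of the intercalated disc. The small heat shock protein gene Hspb7 did not pass the threshold at 2723 against 2477 CPM, and neither did 4 other members.

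Transcripts of the contractile apparatus mostly fell. Of 29 tested sarcomere and Z-disc genes 20 were lower (25.2% over all genes) and 2 higher, with a median log2 fold change of -0.52. Myh6 (ENSMUSG00000040752, chr14:54941921-54966927 in GRCm38), the fast alpha myosin heavy chain of the adult mouse heart, read 6826, 8875, 9416, 4937 and 9760.5 CPM in infarct and 17216, 15216, 21370.2, 18804 and 18470.4 CPM in sham libraries. All infarct values were below all sham values, with a 2.29-fold lower level (log2 -1.19 ± 0.17 SE, adjusted p = 4.85e-05). Myh7, the slow beta chain of the fetal heart, was not called at 312 ± 122 against 275 ± 59 CPM (SD, n = 5; adjusted p = 0.547). The largest falls were in Myh7b, a slow myosin of low abundance (3.43-fold, 17.5, 24.5, 14.9, 14.8 and 12.5 against 49.98, 38.2, 53.8, 69.7 and 76.7 CPM), and in Mylk4, a myosin light chain kinase family member (2.88-fold, 62.6, 84, 82.2, 63.1 and 58.2 against 211, 179.7, 158, 201 and 260.0 CPM). Both had groups that did not overlap. The light chains Myl2 and Myl3, the inhibitory troponin Tnni3 and the titin cap Tcap were 2.08-, 1.99-, 2.08- and 2.31-fold lower. Acta1, the skeletal actin of the fetal heart, rose 2.32-fold (836 ± 87.6 against 359.9 ± 105 CPM, SD, n = 5), and so did Mybpc2, a fast-muscle myosin-binding protein (1.66-fold). Ttn, the spring protein titin, was not called at 1663, 1760.4, 2264, 777 and 2439 against 2162, 1548, 3644, 2263 and 2519 CPM, where infarct replicate 4 was lowest and sham replicate 3 highest.

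Genes of calcium cycling and of the membrane currents were also lower. Of 34 tested, 26 fell and 1 rose (25.2 and 27.5% over all genes), with a median log2 fold change of -0.66. Atp2a2 (ENSMUSG00000029467, chr5:122453513-122502225 in GRCm38), the pump that returns calcium to the sarcoplasmic reticulum, read 8471, 11299.6, 11055, 7871 and 9162 CPM after infarction and 22839.8, 18344, 17715, 20845 and 22612 CPM after sham operation, 2.14-fold lower without overlap (adjusted p = 1.12e-05). Pln, the small protein that restrains this pump, fell 1.95-fold beside it. Scn4b, a beta subunit of the sodium channel, read 17.8, 18.9, 30.4, 15.3 and 14.5 against 146, 69.8, 79.3, 68.5 and 73.4 CPM and was 4.51-fold lower (adjusted p = 6.56e-05). Kcnv2, a silent potassium channel subunit, read 2.97, 4.44, 3.46, 3.25 and 3.28 against 18, 14, 7.14, 16 and 15.6 CPM, 4.06-fold lower. The genes behind the transient outward current moved together, with the channel Kcnd2 1.99-fold, Kcnd3 1.78-fold and their partner Kcnip2 2.41-fold lower. Inward rectifiers fell too (Kcnj2 2.04-fold, Kcnj3 2.52-fold, Kcnj5 2.01-fold and Kcnj11 2.17-fold). The sodium-calcium exchanger Slc8a1 (237 against 256 CPM) did not pass the threshold.

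Among cardiac transcription factors, nuclear receptors and hormone receptors 27 of 31 fell and none rose (25.2 and 27.5% over all genes), with a median log2 fold change of -0.61. Nr3c2, the mineralocorticoid receptor, read 10.04, 14.9, 10.4, 10.3 and 11.9 against 37.6, 30.2, 32.6, 24.6 and 34.2 CPM and was 2.76-fold lower (adjusted p = 7.49e-07). Klf15, a repressor of cardiac growth that glucocorticoids induce, read 15.7, 16.5, 18.3, 18.7 and 15.9 against 39.3, 52.1, 42.7, 51.5 and 48.6 CPM and was 2.75-fold lower (adjusted p = 7.88e-08). In both cases the highest infarct library lay below the lowest sham library. The alpha-1 adrenergic receptors Adra1a (2.38-fold) and Adra1b (2.34-fold) fell more than the beta-1 receptor Adrb1 (1.52-fold) in size, a difference that was not tested. Factors that turn on genes of fat oxidation and mitochondria were also lower: Ppargc1a 2.05-fold, Ppara 1.82-fold, Esrra 1.56-fold and Esrrg 1.83-fold. Among factors of heart identity, Gata4 was 1.17-fold lower at an adjusted p of 0.0356 that was lost on leaving out any of 7 single libraries, Nkx2-5 was 1.2-fold lower and lost its call without infarct replicate 3 or 5 or sham replicate 4, and Ppard did not pass the threshold.

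**Figure D3:**
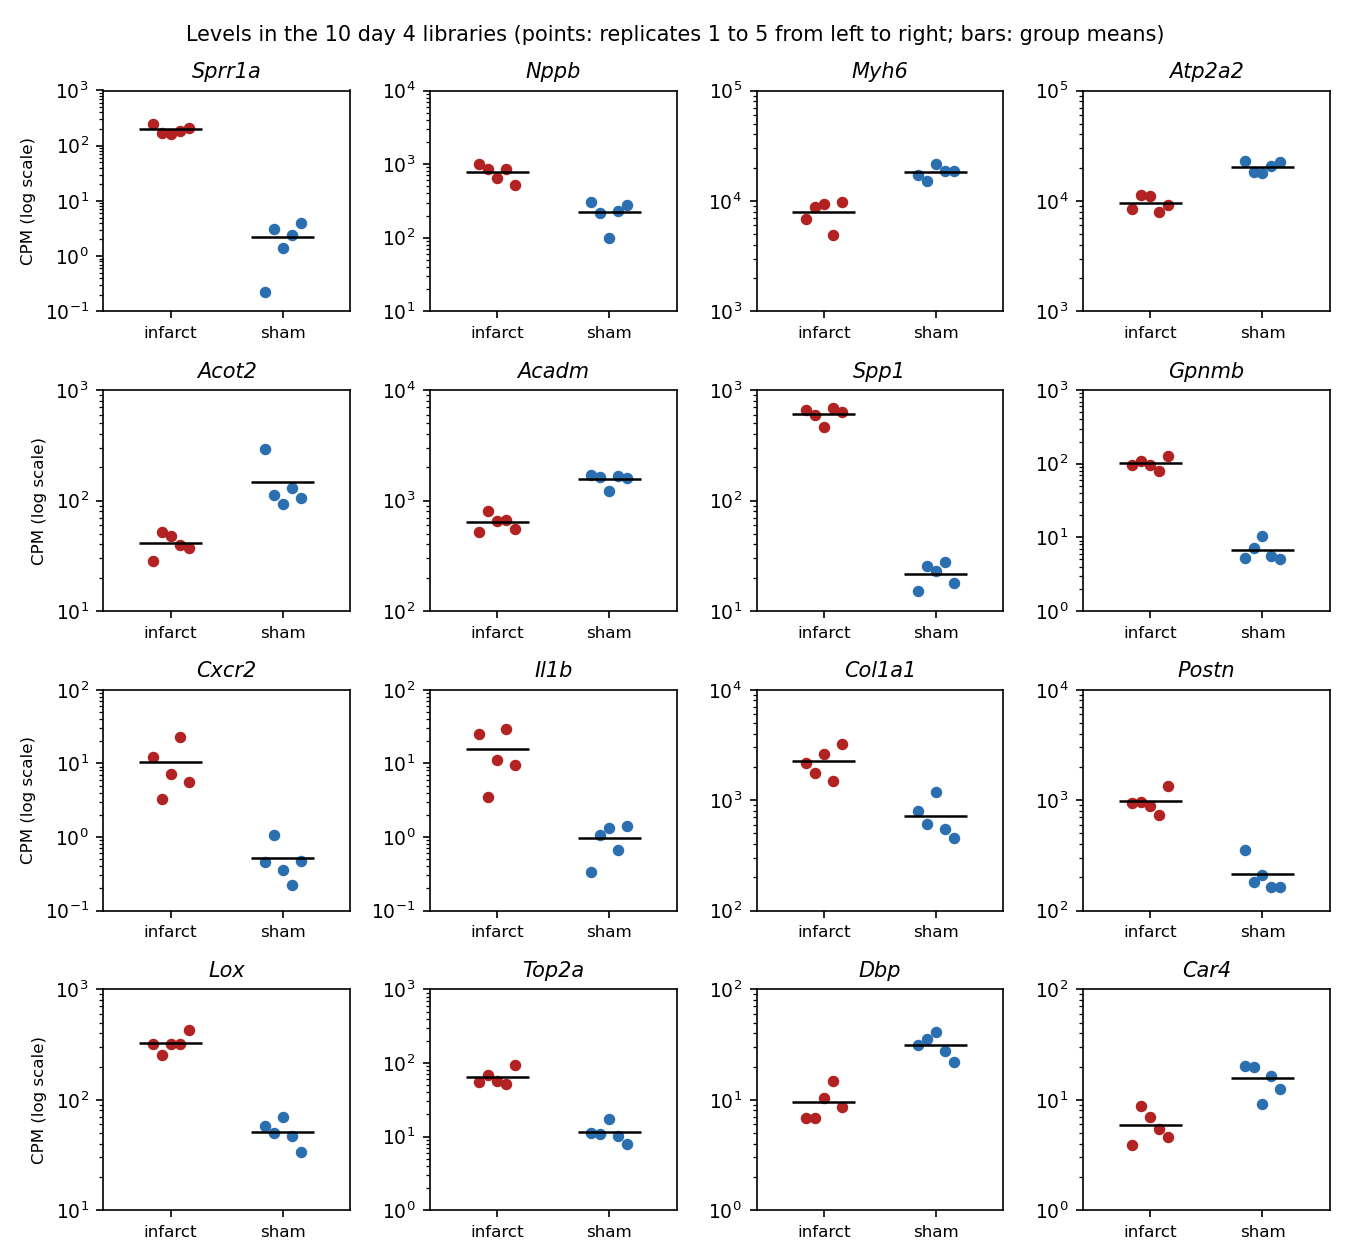
Levels of 16 genes in each library (CPM, log scale in each panel; infarct in red, sham in blue, replicates 1 to 5 from left to right; horizontal bars are group means, n = 5). In every panel the 5 infarct values lie wholly above or wholly below the 5 sham values.

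The enzymes of fat oxidation had the lowest median of the metabolic lists. Of 27 tested genes of fatty acid uptake and oxidation, 24 fell (25.2% over all genes), 21 of them at least 2-fold (3.33% over all genes), and the median log2 fold change was -1.25. Cpt1b, the gate through which muscle mitochondria import long-chain fatty acids, read 21.4, 29.7, 28.2, 19.98 and 21.5 CPM in infarct and 65.9, 49.3, 45.2, 52.8 and 40.6 CPM in sham libraries, 2.1-fold lower (adjusted p = 2.05e-05). Acot2, a mitochondrial thioesterase, read 28.4, 51.7, 47.7, 39.7 and 37.1 against 292, 113, 93.3, 129 and 106 CPM and fell 3.58-fold (adjusted p = 0.00124). Ucp3, a muscle uncoupling protein, read 16.1, 31.1, 24.3, 18 and 17 against 133, 50.4, 45.5, 60.8 and 66 CPM and fell 3.34-fold. None of these 3 genes had overlapping groups. The steps of the oxidation cycle fell by similar amounts: the dehydrogenases Acadm and Acadvl 2.45- and 2.26-fold, the trifunctional subunits Hadha and Hadhb 2.52- and 2.53-fold, and the thiolase Acaa2 2.67-fold. Uptake and activation fell alongside, with the acyl-CoA synthetase Acsl1 2.77-fold lower. Reads of Fabp3, the fatty acid binding protein of heart muscle, are split with a near-identical copy: the gene read 355 against 733 CPM and its pseudogene Fabp3-ps1 1839.7 against 3654 CPM, so that neither level stands for the gene alone. Ucp2, an uncoupling protein that macrophages also make, was the 1 member that rose (1.5-fold, 186 against 125 CPM). Pdk4, the kinase that turns off pyruvate entry when fat is burnt, missed the threshold at 238, 452, 309, 329 and 252 against 2089, 328, 270.2, 376 and 446 CPM (adjusted p = 0.147), with groups that overlap widely.

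Transcripts of the citric acid cycle and the respiratory chain fell by smaller amounts. In the former, with pyruvate entry and ketone use, 23 of 24 tested genes were lower (25.2% over all genes). All infarct values lay below all sham values for 23 genes (17.8% over all genes), yet 2 genes passed 2-fold (3.33% over all genes). Cs, citrate synthase at the entry of the cycle, read 769, 1011, 951, 859.5 and 916 against 1786, 1615, 1516, 1696 and 1632 CPM, 1.83-fold lower (adjusted p = 4.81e-06). Idh2, the NADP-linked isocitrate dehydrogenase, read 776, 1137, 838, 997 and 802 against 1709, 2031, 1471, 2209 and 2229 CPM and Acat1, a thiolase of ketone use, 384, 518, 440.1, 489 and 376 against 911, 937, 685, 952 and 917 CPM, 2.12- and 2-fold lower. Of 28 nuclear genes of the respiratory chain 23 fell and none rose (25.2 and 27.5% over all genes), with a median log2 fold change of -0.81. Ndufs1, the largest core subunit of complex I, read 362, 573, 469.6, 390.0 and 438 against 972, 968, 787, 1054 and 1009 CPM and fell 2.15-fold (adjusted p = 5.45e-06). Sdha, the catalytic subunit of complex II, fell 2.06-fold (826, 1189, 1069, 902 and 966 against 2047, 2034, 1772, 2189 and 2165 CPM). Atp5a1 and Atp5b, the core of ATP synthase, fell 2.03- and 1.85-fold. Cox7a2 (333 against 388 CPM) and Cox8a (115 against 102 CPM), isoforms that tissues other than muscle also use, were among the 5 members not called. The muscle isoforms of the same subunits, Cox7a1 and Cox8b, fell 1.8- and 1.74-fold. The 37 genes of the mitochondrial genome had no counts in any of the 10 libraries of day 4 and could not be compared.

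Genes of glucose metabolism went both ways, often by isoform. Of 34 tested genes 11 rose and 11 fell, near the shares over all genes of 27.5 and 25.2%. Slc2a1, the glucose carrier of most dividing cells, read 55.1, 40.1, 40.8, 56.4 and 53.1 against 17.3, 20.5, 21, 17.9 and 20.4 CPM and rose 2.53-fold (adjusted p = 4.56e-07). Its insulin-responsive counterpart in muscle, Slc2a4, read 209, 261, 218, 222 and 201 against 386, 458, 411, 502 and 504 CPM and fell 2.04-fold (adjusted p = 1.68e-06). The groups did not overlap for either carrier. Slc16a3, which exports lactate, rose 5.76-fold (56.5, 38.5, 40.1, 60.4 and 54.5 against 11.4, 7.24, 12, 5.64 and 7.12 CPM) and Slc16a1, which also imports it, fell 1.51-fold. Hk3, a hexokinase of white blood cells, rose 5.58-fold (17.1, 19.1, 16.7, 18.2 and 18.2 against 2.7, 3.73, 4.52, 2.77 and 2.26 CPM), while Hk2 of muscle fell 1.53-fold and Hk1 was not called. The platelet-type phosphofructokinase Pfkp rose 1.92-fold and the muscle type Pfkm fell 2.3-fold. The brain-type Pgam1 and the widely used Eno1 rose 1.87- and 1.67-fold, and their muscle forms Pgam2 and Eno3 fell 1.65- and 2.09-fold. Ldha was not called at 901 against 817 CPM and Ldhb, the heart form, fell 2.16-fold. Gapdh read only 8.61 against 9.85 CPM, a gene with many near-identical copies in the mouse genome whose level here is uncertain.

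**Figure D4:**
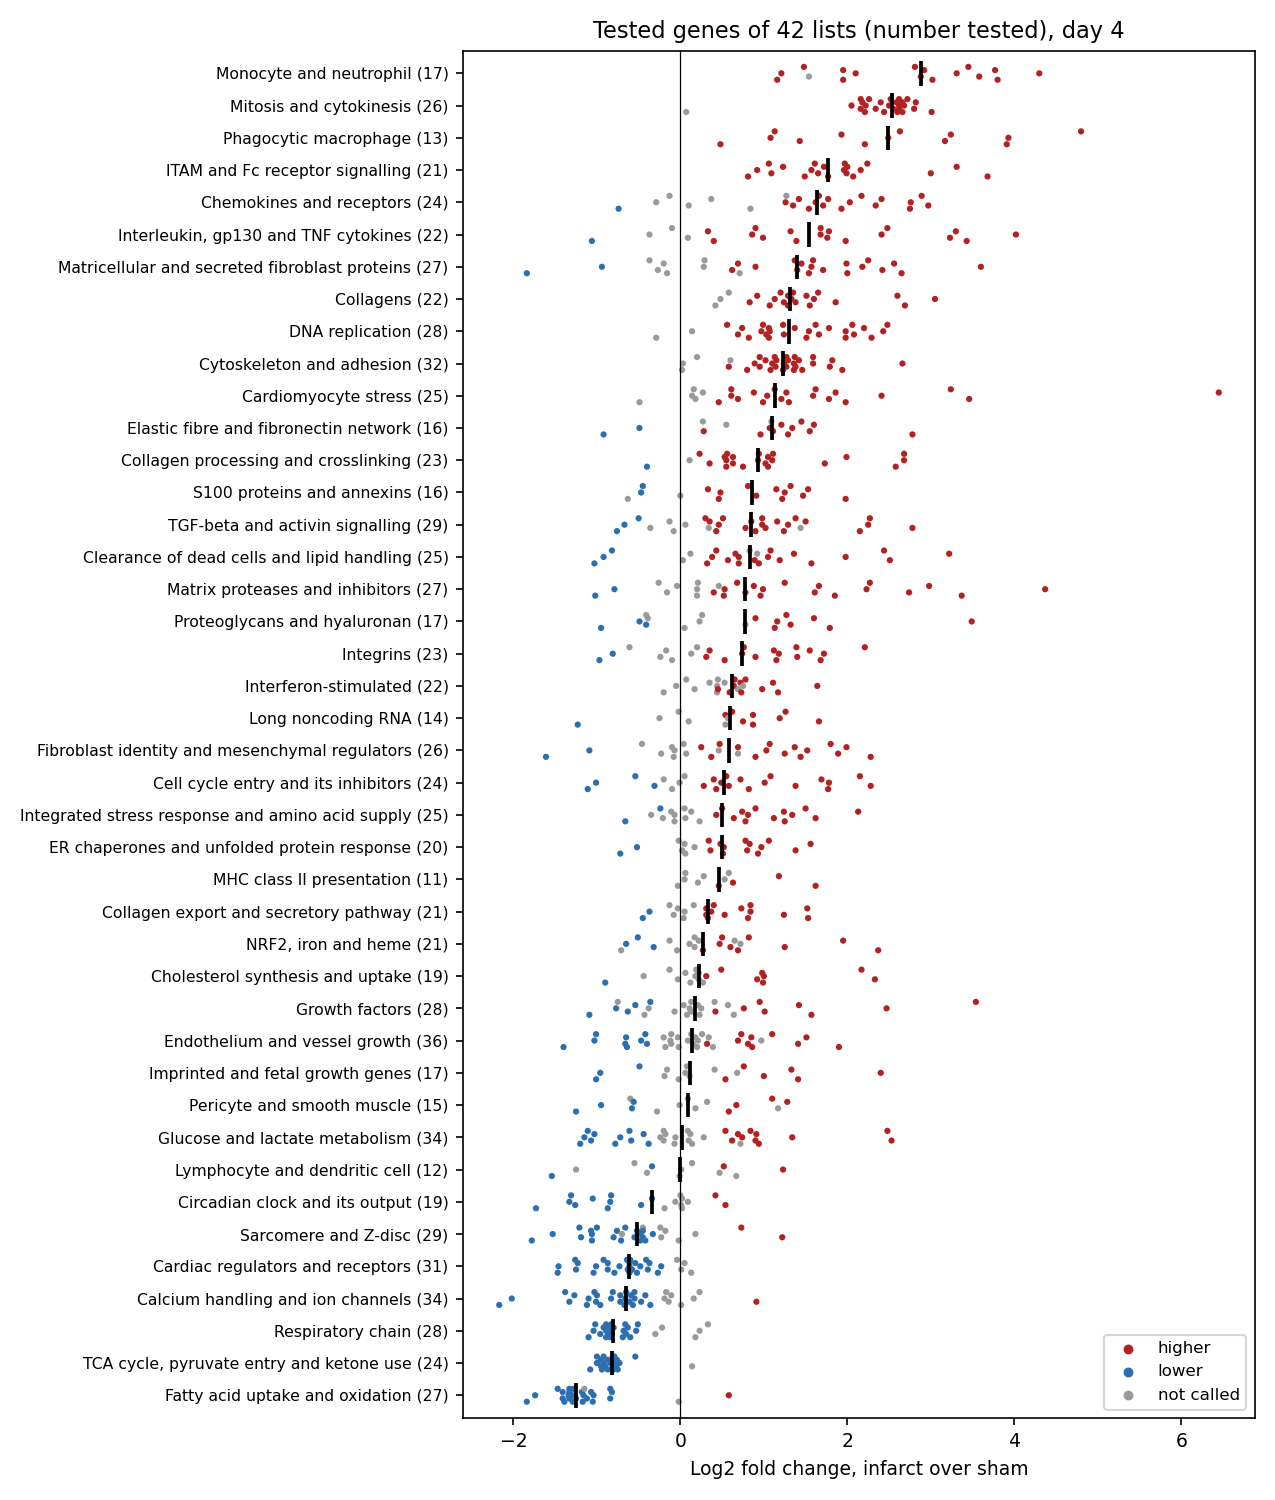
Log2 fold changes of the tested genes in 42 gene lists, 1 point per gene, with the median of each list as a black bar and the lists ordered by it. Points are red where higher, blue where lower and grey where not called. The monocyte and neutrophil, mitosis and phagocytic macrophage lists have the highest medians, and fatty acid oxidation the lowest.

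Genes of phagocytic macrophages were higher throughout the list. All 13 tested rose (27.5% over all genes), 12 of them at least 2-fold (9.94% over all genes), with a median log2 fold change of 2.49. Spp1 (ENSMUSG00000029304, chr5:104435118-104441050 in GRCm38), which encodes the secreted matrix protein osteopontin, read 658, 597, 459.6, 689 and 636 CPM in infarct and 15, 25.6, 23.1, 27.7 and 17.8 CPM in sham libraries. The fitted rise was 27.8-fold (log2 4.80 ± 0.18 SE, adjusted p = 5.17e-10). Gpnmb, a membrane glycoprotein of macrophages filled with debris, read 94.9, 109, 96.7, 80.7 and 129 against 5.29, 7.24, 10.5, 5.53 and 5.1 CPM and rose 15.2-fold (adjusted p = 1.43e-08). Hmox1, the enzyme that breaks down haem, read 405, 261, 295, 349.8 and 304 against 24.5, 24.6, 20.003, 20.1 and 18.2 CPM and rose 15-fold (adjusted p = 3.28e-10). Trem2, a lipid receptor of such macrophages, rose 5.61-fold, and the lysosomal proteases Ctsb and Ctsk rose 2.19- and 2.69-fold. Mmp12, macrophage elastase, was 9.48-fold higher at 23.1 against 2.45 CPM, and 3.91 on the log2 scale without sham replicates 2 and 3 (from 3.24).

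The receptors that signal through the ITAM adaptor Tyrobp and the Fc receptor chain rose as completely. All 21 tested were higher, against 27.5% over all genes. For all 21 the lowest infarct value exceeded the highest sham value, against 19.7% over all genes. Tyrobp itself read 86.3, 55.8, 69, 88 and 54.3 against 13.4, 17.2, 18.7, 13.4 and 16.4 CPM, 4.47-fold higher (adjusted p = 1.55e-07). The C-type lectins that sense dying cells and microbes led the list: Clec4d read 35.7, 19.5, 21, 30.4 and 16.1 against 1.13, 2.1, 2.14, 1.88 and 2.26 CPM (12.8-fold) and Clec4e 14, 6.34, 4.78, 15.6 and 8 against 1.13, 0.817, 1.43, 0.553 and 0.95 CPM (9.89-fold). Fcgr1, the high-affinity receptor for IgG, rose 4.21-fold and the inhibitory Fcgr2b 2.34-fold. The kinases downstream rose less, Btk 3.13-fold and Syk 1.76-fold.

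Genes for the clearance of dead cells were mixed in direction. Of 25 tested genes 18 rose and 3 fell (27.5 and 25.2% over all genes). Mertk, the receptor by which macrophages engulf dead cells, read 25.5, 23.4, 26.6, 21.3 and 25.5 against 16.8, 10.04, 19.5, 14 and 14.8 CPM, 1.63-fold higher (adjusted p = 0.000773). Lgals3, a galectin of activated macrophages, read 194, 172, 151, 178 and 179.9 against 14.7, 22.2, 30.1, 13.5 and 13.3 CPM and rose 9.34-fold. Msr1, a scavenger receptor, read 74.1, 55, 56.2, 84.2 and 70.9 against 9.46, 13.8, 16.9, 8.96 and 10.8 CPM and rose 5.69-fold. The lysosomal glycoprotein Cd68 rose 5.43-fold and apolipoprotein Apoe 2.07-fold, while Gas6, a bridge between Mertk and dying cells, was not called at 279.6 against 258 CPM. The falling members were Timd4, a receptor of resident macrophages (1.63, 2.35, 1.95, 1.49 and 1.36 against 2.36, 3.85, 3.93, 3.65 and 4.15 CPM), and the lipid genes Lpl and Cd36, which heart muscle and capillaries also use (1.77- and 1.89-fold lower).

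Monocyte and neutrophil genes had the highest median of the immune lists. Of 17 tested 16 rose (27.5% over all genes), all at least 2-fold (9.94% over all genes), with a median log2 fold change of 2.88. S100a8, a subunit of the neutrophil protein calprotectin, read 26.5, 3.89, 10.2, 56.6 and 8.16 CPM after infarction and 1.46, 1.98, 1.67, 1.66 and 0.831 CPM after sham operation. Infarct replicate 4 was highest, and without it the log2 fold change went from 3.77 to 2.98. The log2 fold change of its partner S100a9 moved likewise, from 3.58 to 2.97. Cxcr2, the neutrophil receptor for CXC chemokines, read 12.3, 3.26, 7.18, 23.1 and 5.6 against 0.45, 1.05, 0.357, 0.221 and 0.475 CPM and rose 19.7-fold (adjusted p = 0.000288). Arg1, an arginase of wound macrophages, read 163, 82.7, 81.3, 257 and 114 against 7.77, 20.5, 32.7, 7.96 and 25.8 CPM and rose 7.39-fold, and Chil3, a chitinase-like protein of monocytes, rose 9.92-fold. Ccr2, the receptor that draws monocytes out of the marrow, rose 4.3-fold (82.1 against 19.1 CPM). The granule genes of immature neutrophils, Ngp and Camp, did not pass the filter on low counts in these libraries.

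Most of the chemokine genes tested were higher. Of 24 chemokines and receptors 17 rose and 1 fell (27.5 and 25.2% over all genes). Ccl2, the main attractant of monocytes, read 64.9, 43.5, 36.6, 72.4 and 41.2 against 11.3, 7.24, 7.74, 4.98 and 3.56 CPM and rose 7.41-fold (adjusted p = 1.27e-05), and Ccl7, a second ligand of Ccr2, read 75.8, 39.5, 42.5, 67.1 and 31.3 against 10.2, 8.75, 6.43, 8.3 and 4.04 CPM and rose 6.75-fold. Ccl4 and Cxcl2 had larger log2 fold changes than most at low levels (2.26 against 0.273 and 2.61 against 0.373 CPM). Cxcl9 (5.79 against 7.06 CPM) and Cxcl14 (27 against 25.1 CPM) did not pass the threshold. Ackr3, a receptor that scavenges chemokine, was the 1 member that fell (1.67-fold).

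Of 22 interleukin, gp130 and TNF family genes tested 18 rose and 1 fell (27.5 and 25.2% over all genes). Il1b, the fever cytokine of myeloid cells, read 25.1, 3.53, 11.1, 29 and 9.44 against 0.338, 1.05, 1.31, 0.664 and 1.42 CPM and rose 16.2-fold (adjusted p = 0.000675), with its natural antagonist Il1rn 9.36-fold higher. Il6 read 9.09, 2.72, 4.52, 9.48 and 4.88 against 0.563, 1.17, 0.119, 0.221 and 0.712 CPM and rose 10.8-fold (adjusted p = 4.67e-05). Other ligands of the shared gp130 receptor chain rose with it, Lif 5.59-fold and Osm 5.3-fold. Cardiotrophin Ctf1, a gp130 ligand of heart muscle, was the member that fell (4.21, 4.8, 4.25, 3.81 and 4.88 against 9.68, 8.87, 7.02, 8.85 and 11.4 CPM, 2.08-fold). Another 8 genes of the list, Tnf and Il10 among them, did not pass the filter.

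The lists of adaptive immunity and interferon moved less. Of 11 genes of MHC class II presentation 4 rose (27.5% over all genes), and the list's median log2 difference was 0.46. The count was 2 on leaving out infarct replicate 1 or 5 or sham replicate 4, and 6 without sham replicates 2 and 3, with a median of 0.77. Cd74, the invariant chain, was not called at 139, 134, 164, 101 and 164 against 71.7, 152, 215, 99.1 and 140.4 CPM, and the class II gene H2-Ab1 was not called at 59.2 against 51.3 CPM. The costimulatory Cd80 rose 3.07-fold (6.22, 6.16, 5.32, 4.37 and 4.32 against 2.03, 1.63, 2.62, 1.55 and 0.712 CPM) and Cd40 2.27-fold (8.99, 6.52, 6.56, 7.62 and 7.44 against 1.91, 3.03, 4.76, 3.21 and 3.44 CPM). Of 22 interferon-stimulated genes 11 rose (27.5% over all genes). The count was 7 without infarct replicate 3 or 5 or sham replicate 1 or 5, and 17 without infarct replicate 4. Isg15 read 42.9, 32.3, 55, 24.2 and 37.4 against 14.7, 26.1, 19.6, 20.2 and 16.5 CPM (1.97-fold, adjusted p = 0.00173) and Mx1 10.3, 5.89, 13.6, 5.2 and 9.2 against 0.901, 3.85, 4.05, 2.77 and 2.61 CPM (3.12-fold). Gbp2 and Irf1, which interferon gamma induces, were not called. In all, 12 of 24 lymphocyte and dendritic cell genes, Cd3e among them, did not pass the filter. Of the 12 tested 2 rose and 2 fell (27.5 and 25.2% over all genes). Without sham replicates 2 and 3, which held B-cell transcripts, 5 rose and 2 fell. Ctla4, an inhibitory receptor of T cells, fell 2.92-fold at low level (0.478, 0.996, 1.33, 0.744 and 0.56 against 2.7, 2.68, 2.38, 2.77 and 1.54 CPM), and Fscn1, an actin bundler of mature dendritic cells that other cells also make, rose 2.35-fold (118, 127, 113, 121 and 157 against 56.1, 54.9, 58.6, 46.8 and 54.4 CPM).

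Collagen genes rose across types. Of 22 tested 19 rose and none fell (27.5 and 25.2% over all genes), with a median log2 fold change of 1.31. Col1a1 (ENSMUSG00000001506, chr11:94936224-94953042 in GRCm38), a chain of the main fibrillar collagen of scars, read 2185, 1744, 2604, 1497 and 3207 against 796, 608, 1183, 551 and 454 CPM. The groups did not overlap and the rise was 3.13-fold (log2 1.65 ± 0.28 SE, adjusted p = 0.000388). Col12a1, a collagen on fibril surfaces, read 53.8, 39.4, 54.1, 29.5 and 86.3 against 8.44, 6.19, 15.5, 4.76 and 5.94 CPM and rose 6.47-fold (adjusted p = 0.00024). Col11a1, which seeds fibrils, read 11.7, 4.62, 8.33, 4.93 and 19.8 against 0.563, 1.17, 2.74, 0.332 and 1.19 CPM, a log2 fold change of 3.05 that was 3.83 without sham replicates 2 and 3. The short-chain collagen Col8a1 rose 6.08-fold, Col3a1 of young scar 2.35-fold, and the basement membrane chains Col4a1 and Col4a2 2.19- and 1.78-fold. The members not called, Col6a1, Col6a2 and Col5a3, passed the threshold without sham replicate 3 (adjusted p = 0.0158, 0.0361 and 0.0131).

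Transcripts of the enzymes that mature collagen rose with those of collagen. Of 23 tested 21 rose and 1 fell (27.5 and 25.2% over all genes). Lox, which crosslinks collagen and elastin, read 322, 257, 321, 319 and 432 against 57.4, 49.5, 69.9, 47.1 and 33.5 CPM and rose 6.41-fold (adjusted p = 1.92e-07). P4ha3, a subunit of prolyl 4-hydroxylase, read 20.8, 14.5, 16.2, 14.3 and 22 against 3.38, 3.15, 2.86, 2.32 and 1.9 CPM and rose 6.43-fold (adjusted p = 8.35e-08). Loxl3, Loxl4 and Loxl2 rose 5.97-, 3.97- and 3.31-fold, and the collagen chaperone Serpinh1 2.08-fold. P4ha2 was not called and P3h4 fell 1.32-fold. Genes of the machinery that carries collagen out of the cell were more mixed. In their list 13 of 21 genes were higher and 2 lower (27.5 and 25.2% over all genes). Kdelr3, a receptor that returns proteins to the endoplasmic reticulum, read 38.1, 27.6, 31.3, 43.8 and 38.7 against 13.5, 12.4, 13.9, 11.1 and 11.4 CPM (2.88-fold) and the translocon subunit Sec61b 16.7, 14.2, 14.2, 18.9 and 11.6 against 5.18, 6.54, 6.31, 3.87 and 4.51 CPM (2.86-fold). Creb3l1, a factor that turns on secretory genes, rose 2.36-fold. The vesicle coat gene Sec23a was not called (80.1 against 84.9 CPM), nor was Mia3, a collagen loading factor, and Sar1b and Mia2 fell 1.36- and 1.29-fold.

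Genes of proteins that activated fibroblasts secrete mostly rose. Of 27 matricellular and secreted genes 18 rose and 2 fell (27.5 and 25.2% over all genes). Postn (ENSMUSG00000027750, chr3:54361109-54391037 in GRCm38), the matricellular protein periostin, read 951, 972, 890.5, 730.1 and 1351 against 357, 179.5, 212, 165 and 163 CPM and rose 4.55-fold (adjusted p = 9.24e-06). Tnc, tenascin C of wound edges, read 163, 211, 169.6, 111 and 251 against 13.6, 13.1, 25.8, 11.8 and 10.6 CPM and rose 12.1-fold (adjusted p = 3.4e-06). Cthrc1, a secreted protein of scar fibroblasts, read 89.9, 75.7, 72.1, 85.6 and 82.9 against 17.3, 13.5, 14.6, 10.3 and 8.9 CPM and rose 6.27-fold (adjusted p = 1.65e-08). Ccn2, a target of TGF-beta and stretch, rose 5.9-fold. The secreted genes that fell were Cilp2 of cartilage (2.39, 1.99, 10.2, 4.37 and 5.12 against 10.5, 16.2, 30.8, 10.7 and 18.8 CPM, 3.59-fold) and the Wnt inhibitor Wif1 (1.91-fold), and their relatives Cilp and Sfrp1 rose 3.02- and 2.64-fold.

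TGF-beta and activin genes were mostly higher, with 20 of 29 tested up and 3 down (27.5 and 25.2% over all genes). Among ligands, Tgfb1 read 87.3, 76.3, 75, 88 and 99.6 against 45.9, 46.1, 49.1, 43.4 and 43.4 CPM (1.87-fold, adjusted p = 1.39e-06), Tgfb2 and Tgfb3 rose 2.45- and 2.23-fold, and Inhba, the subunit of activin A, rose 4.42-fold. Ltbp2, a matrix protein of the latent TGF-beta binding family, read 104, 81.8, 109.7, 72.3 and 162 against 21.5, 10.2, 20.4, 9.4 and 15.7 CPM and rose 6.88-fold (adjusted p = 2.38e-05). Fstl3, which binds activin, read 16.5, 12.1, 8.59, 16.8 and 15.9 against 3.83, 3.5, 4.17, 1.44 and 1.54 CPM and rose 4.82-fold. The type 1 receptor Tgfbr1 rose 1.98-fold while the co-receptor Tgfbr3 fell 1.7-fold. Ltbp1 and Bmp6 also fell (1.59- and 1.42-fold), and the signal carriers Smad2 and Smad3 were not called.

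In the elastic fibre list 11 of 16 genes rose and 2 fell (27.5 and 25.2% over all genes), the latter Fbln1 (1.4-fold, adjusted p = 0.0207) and Efemp1 (1.89-fold, adjusted p = 0.0473). Both calls were lost without sham replicates 2 and 3 (log2 fold changes of -0.49 and -0.92 became -0.38 and -0.28), that of Fbln1 also without infarct replicate 1, and that of Efemp1 also on leaving out any 1 of infarct replicates 1 to 4 or sham replicate 2 or 3. Eln, elastin itself, was not called at 232, 106, 426, 241 and 507 against 139.7, 122, 254, 82.7 and 113 CPM (adjusted p = 0.0708), with infarct replicate 2 inside the sham range. Its adjusted p was 0.016 without that library and 0.03 without sham replicate 3. The scaffold genes Emilin1 (193, 160.2, 168, 159.7 and 249 against 80.6, 53.8, 68, 56.9 and 48.1 CPM, 3.03-fold) and Fbn1, fibrillin (2.54-fold), rose. Of 17 proteoglycan and hyaluronan genes tested 8 rose and 3 fell (27.5 and 25.2% over all genes). Cemip, which breaks down hyaluronan, read 10.5, 9.87, 16.2, 7.16 and 20.1 against 1.8, 0.35, 1.55, 0.996 and 0.95 CPM (11.2-fold) and Has2, which makes it, 8.32, 5.52, 6.56, 7.44 and 10.5 against 2.36, 2.57, 3.1, 2.43 and 0.594 CPM (3.45-fold). Vcan, the large hyaluronan-binding versican, rose 2.23-fold (64.3, 53.6, 84.8, 52.8 and 109 against 38.4, 28.4, 52.9, 22.6 and 21.2 CPM), as did the small proteoglycan Bgn (2.5-fold). The small proteoglycans Dcn and Ogn of resting fibroblasts fell 1.41- and 1.33-fold.

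Of 27 matrix proteases and inhibitors 18 rose and 2 fell (27.5 and 25.2% over all genes). Adam8, a protease of myeloid cells, read 103, 64.4, 66.5, 81.1 and 78.8 against 2.03, 3.03, 6.55, 3.43 and 4.04 CPM, 20.7-fold higher (adjusted p = 4.51e-08). Timp1, an inhibitor of metalloproteases, rose 7.88-fold and Timp4, the form most made in heart, fell 2.03-fold (6.6, 9.6, 5.23, 9.11 and 7.12 against 9.57, 21.1, 11.9, 23.9 and 9.73 CPM). Mmp14 rose 3.6-fold, whereas Mmp2, which it activates, was not called at 119 ± 31 against 104 ± 20.7 CPM (SD, n = 5) and Mmp15 fell 1.73-fold.

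Regulators and markers of mesenchymal cells rose in part. Of 26 genes 15 rose and 2 fell (27.5 and 25.2% over all genes). Runx2, a factor of bone formation, read 5.64, 4.07, 3.81, 3.44 and 7.36 against 1.01, 0.817, 0.953, 0.996 and 1.19 CPM (4.87-fold, adjusted p = 6.16e-06), Snai1, a mesenchymal repressor, 17.5, 13.9, 15, 16.1 and 19.3 against 5.52, 3.38, 4.76, 3.54 and 3.32 CPM (3.97-fold), and Meox1 rose 3.71-fold. Pdgfra, the receptor that marks cardiac fibroblasts, was not called at 64.1, 57.4, 77.2, 75.4 and 107 against 69, 62.1, 101, 58.5 and 73 CPM, nor were Prrx1 and Pi16. The surface genes Scara5 and Lrrc15 fell 3.06- and 2.13-fold (10.7, 19.1, 22.2, 15.9 and 19.7 against 50.9, 51.4, 68.5, 49.1 and 48.8 CPM for Scara5).

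Integrins of leukocytes led their list. Of 23 integrin genes tested 15 rose and 2 fell (27.5 and 25.2% over all genes). The leukocyte chains Itgax (11.2, 6.52, 6.82, 8.09 and 11 against 0.563, 2.33, 3.21, 1.99 and 1.31 CPM), Itgb2 and Itgam rose 4.64-, 3.2- and 2.93-fold. Itgb3, of platelets and macrophages, read 26.1, 22.6, 23.8, 24.7 and 27.7 against 8.89, 7.12, 12.5, 3.32 and 6.17 CPM (3.29-fold), and the fibronectin receptor chain Itga5 rose 2.64-fold. Itga1 was not called (54.2 against 49.5 CPM), Itgb6 fell 1.96-fold, and Itgb1bp2, a muscle chaperone named melusin, fell 1.75-fold.

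Cytoskeletal genes rose with no member lower. Of 32 tested 28 rose (27.5% over all genes), 23 at least 2-fold (9.94% over all genes), with a median log2 fold change of 1.23. Actb, the actin of nonmuscle cells, read 1511, 1327, 1382, 1594 and 1643 against 672, 680.3, 761, 608 and 645 CPM and rose 2.21-fold (adjusted p = 4.49e-07). The tubulin Tubb3 read 28.3, 25.4, 16.2, 22.8 and 29.1 against 4.73, 3.97, 5.95, 2.65 and 1.9 CPM (6.33-fold) and Tubb2b 31.1, 29.1, 22.8, 28.2 and 36.3 against 8.22, 8.99, 7.26, 6.86 and 7.12 CPM (3.83-fold). Vim, the filament protein of mesenchymal cells, rose 2.75-fold, Actn1 3.53-fold and the thymosins Tmsb10 and Tmsb4x 3.45- and 3-fold. Myl12a, a light chain of nonmuscle myosin, was not called (727 against 633 CPM). Of 16 calcium-binding S100 proteins and membrane-binding annexins 12 rose and 2 fell (27.5 and 25.2% over all genes). S100a4 of fibroblasts and myeloid cells read 53.9, 27.4, 35.3, 60.8 and 35.5 against 11.1, 11.4, 14.9, 7.63 and 8.9 CPM (3.94-fold), Anxa2 rose 2.77-fold, and S100a1, the heart muscle form, read 443, 466, 438, 495 and 319.8 against 542, 681, 482, 652 and 639 CPM and fell 1.39-fold.

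Nearly every listed gene of cell division was higher. Of 26 tested mitosis genes 25 rose (27.5% over all genes), all at least 2-fold (9.94% over all genes). All 25 had infarct values wholly above sham values (19.7% over all genes), and the list's median log2 fold change was 2.54. The exception was Cenpf, a kinetochore protein, at 35.2 against 33.7 CPM (adjusted p = 0.793). Cdk1, the kinase that starts mitosis, read 24.6, 19.6, 16, 24.3 and 24.7 against 5.07, 3.62, 3.81, 2.88 and 1.54 CPM and rose 6.42-fold (adjusted p = 4.13e-07). Nuf2, a kinetochore subunit, read 17.4, 18, 13.6, 16.6 and 19.2 against 2.59, 2.1, 2.38, 1.99 and 1.42 CPM, 8.04-fold higher (adjusted p = 1.29e-08). Ccna2, cyclin A, read 33.8, 31, 23.3, 36.8 and 42.1 against 5.63, 5.02, 6.19, 3.98 and 2.73 CPM, 7.08-fold higher. In the list of DNA replication 26 of 28 rose (27.5% over all genes), by less (median log2 fold change 1.30). Mcm2 of the replicative helicase read 22.6, 24.1, 21.4, 23.8 and 31.2 against 15.4, 11.9, 14.6, 9.4 and 10.6 CPM (1.99-fold). Mcm10, another replication gene, read 6.03, 6.79, 5.67, 4.93 and 7.12 against 0.675, 1.05, 1.79, 0.996 and 0.95 CPM (5.57-fold). Of 24 genes of cell cycle entry 16 rose and 4 fell (27.5 and 25.2% over all genes). E2f7 rose 4.87-fold, Myc 4.45-fold (19.99, 18.3, 14.4, 20.5 and 19.7 against 4.95, 4.2, 5.24, 2.65 and 3.8 CPM) and Ccnd1, cyclin D1, 1.46-fold. The brakes went both ways, with Cdkn1a 2.02-fold higher and Cdkn1c and Gadd45a 2.01- and 2.16-fold lower.

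Promoters of these mitosis genes were searched for short elements that such genes are known for. These were the cell cycle homology region (CHR, searched as TTTGAA) and the CCAAT box (CCAAT). Both were searched on either strand, in the stretch before the transcription start in RefSeq for GRCm38.p6. A gene was counted if any of its annotated starts held a match. The CHR letters stood within the 250 bases before the start in 9 of 22 matched genes (40.9%) and in 18.3% of all 27025 genes with promoters. With the first 50 transcribed bases they stood in 17 of 22 (77.3%) and 20.2%. The CCAAT letters stood in 18 of 22 (81.8%) within 250 bases and in 37.5% of all genes with promoters. Cenpf, which was not called, was among the 18 with CCAAT letters and the 17 with CHR letters. Of the genes that rose, 3 are shown, each with the 100 bases before its start and the matches in capitals (CCAAT reads ATTGG and TTTGAA reads TTCAAA on the opposite strand). The stretches lie at chr19:37376282-37376381 (plus strand), chr11:99024190-99024289 (minus strand) and chr7:135716380-135716479 (minus strand).
Kif11: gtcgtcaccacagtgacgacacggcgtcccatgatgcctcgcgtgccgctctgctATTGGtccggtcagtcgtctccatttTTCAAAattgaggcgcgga
Top2a: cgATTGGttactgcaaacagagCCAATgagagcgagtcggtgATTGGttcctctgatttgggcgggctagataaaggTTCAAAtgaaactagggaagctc
Mki67: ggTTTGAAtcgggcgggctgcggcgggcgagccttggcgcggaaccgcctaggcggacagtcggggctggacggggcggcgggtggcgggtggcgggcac
Kif11, a motor that separates spindle poles, read 18.7, 18.2, 17.4, 16.7 and 30.2 against 4.28, 4.79, 5.12, 3.54 and 4.04 CPM (4.65-fold). Top2a, which untangles DNA before division, read 54.3, 68.1, 57.7, 52.5 and 93.6 against 11.1, 11, 17.6, 10.3 and 7.83 CPM (5.64-fold). Mki67, the proliferation antigen Ki-67, read 72.5, 66.6, 72.1, 47.9 and 112 against 12.5, 10.04, 27, 9.51 and 11.4 CPM (5.29-fold). The 3 rose by similar amounts, and a match of letters is a description, not a site of binding.

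Genes of protein folding in the endoplasmic reticulum rose in part. Of 20 chaperone and unfolded protein response genes 13 rose and 2 fell (27.5 and 25.2% over all genes). Sdf2l1, a chaperone cofactor, read 36.6, 42.5, 27.5, 32.4 and 25.2 against 12.2, 10.3, 12.9, 10.7 and 9.62 CPM (2.95-fold, adjusted p = 8.09e-07) and Edem1, which sorts misfolded proteins for destruction, 84.6, 81.9, 82.8, 80.6 and 95.3 against 36.2, 34.9, 41.3, 25.3 and 25.2 CPM (2.61-fold). Hspa5, the main chaperone of this compartment, was not called at 639, 924, 677, 568 and 682 against 587, 627, 562, 667 and 659 CPM. The stress targets Herpud1 and Dnajb9 fell 1.65- and 1.43-fold. The endoplasmic reticulum stress element, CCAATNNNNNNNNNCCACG on either strand, was searched over 250 bases. It stood in 8 of 18 matched genes of the list (44.4%) and in 0.13% of all genes with promoters. Both pieces of the element are in capitals in the 130 bases before the start of Creld2, at chr15:88819516-88819645 (plus strand), and of Dnajc3, at chr14:118937802-118937931 (plus strand), as members that rose (in Creld2 they read on the opposite strand).
Creld2: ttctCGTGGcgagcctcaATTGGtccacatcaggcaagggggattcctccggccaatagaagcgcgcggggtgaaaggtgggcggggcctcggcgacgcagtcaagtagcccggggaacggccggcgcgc
Dnajc3: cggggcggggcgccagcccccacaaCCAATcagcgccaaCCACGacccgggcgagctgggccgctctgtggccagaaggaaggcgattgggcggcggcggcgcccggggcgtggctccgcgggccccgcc
Creld2, a secreted stress protein, read 32.5, 42.8, 33.2, 28.3 and 28.2 against 23.2, 22.2, 19.3, 15.5 and 15.8 CPM (1.72-fold). Dnajc3, a cochaperone of Hspa5, rose 1.26-fold (adjusted p = 0.00929), a call that was lost without sham replicates 2 and 3 (adjusted p = 0.0672). The element was also found in the promoter of Hspa5 and of 2 other members that were not called.

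Genes of amino acid supply also rose in part. Of 25 genes of the integrated stress response 14 rose and 2 fell (27.5 and 25.2% over all genes). Atf4, its central factor, read 125, 124, 101, 132 and 113 against 118, 88.5, 70.6, 82.1 and 83.1 CPM (1.34-fold, adjusted p = 0.00812). The mitochondrial folate enzymes Mthfd1l (8.8, 4.98, 4.7, 9.85 and 9.84 against 2.25, 1.75, 2.26, 1.55 and 0.831 CPM) and Mthfd2 (23.1, 23, 16.3, 19.2 and 21.5 against 9.34, 5.6, 7.26, 5.42 and 5.82 CPM) rose 4.39- and 3.08-fold, and the serine enzyme Psat1 2.83-fold. Ddit3 and Trib3, targets of Atf4 under strong stress, were not called. In the list of NRF2 targets, iron and haem 9 of 21 rose and 3 fell (27.5 and 25.2% over all genes). Slc11a1, an iron exporter of phagosomes, read 49.5, 37.7, 41.2, 45.6 and 45.2 against 5.74, 11, 10.5, 6.86 and 8.43 CPM (5.17-fold), and the ferritin light chain Ftl1 232, 158, 183, 198 and 169.6 against 52.1, 47.2, 67.3, 34.4 and 42.7 CPM (3.86-fold), a gene with near-identical copies whose reads may be split. The NRF2 target Nqo1 was not called at 47.9, 51.7, 42.5, 51.5 and 37.9 against 37.4, 50.5, 41.8, 52.2 and 55.9 CPM. Of 19 cholesterol genes 8 rose and 1 fell (27.5 and 25.2% over all genes). The largest rises were in Ch25h, which makes 25-hydroxycholesterol (12.1, 8.51, 8.33, 12.1 and 11.5 against 2.93, 1.63, 2.62, 1.33 and 1.9 CPM, 5.03-fold), and Soat1, which esterifies cholesterol for storage (55.8, 43.1, 48.4, 48.6 and 61.3 against 12.3, 11.2, 13.3, 10.2 and 10.2 CPM, 4.5-fold). Fdft1, the step committed to sterols, fell 1.87-fold.

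Vessel genes did not move as 1 group. Of 36 endothelial and vessel growth genes 10 rose and 9 fell, both near the shares over all genes, and the pan-endothelial genes Pecam1 (258, 279, 254, 272 and 301 against 284, 252, 245, 229.9 and 238 CPM) and Cdh5 (238 against 215 CPM) were not called. Selp, the selectin that catches leukocytes, read 9.76, 3.08, 7.09, 16.7 and 9.52 against 2.48, 2.45, 3.57, 1.11 and 2.73 CPM and rose 3.74-fold (adjusted p = 0.00192), and Sele rose 2.66-fold. Among genes of growing vessels, Pgf read 12.5, 14.6, 9.13, 17.1 and 11.2 against 6.3, 5.72, 3.93, 2.77 and 3.92 CPM (2.84-fold) and Apln of tip cells rose 2.14-fold. Car4, a carbonic anhydrase of heart capillaries, read 3.92, 8.78, 6.91, 5.39 and 4.56 against 20.3, 19.8, 9.17, 16.3 and 12.5 CPM and fell 2.64-fold (adjusted p = 0.000349). The receptors Kdr and Flt1 and the vessel stabiliser Angpt1 fell 1.57-, 1.39- and 2.02-fold. Of 15 mural cell genes 4 rose and 4 fell, near the shares over all genes (27.5 and 25.2%). The contractile Tagln read 248, 169, 167, 225 and 219 against 79.5, 81.9, 124, 46.9 and 89.9 CPM (2.43-fold) and the adhesion gene Mcam rose 2.14-fold. Rgs5 of pericytes read 513, 616, 565, 478 and 483 against 959, 739, 591, 796 and 838 CPM (1.48-fold lower), and the pericyte potassium channel genes Abcc9 and Kcnj8 fell 2.38- and 1.93-fold, of which Abcc9 is also made in heart muscle.

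Of 28 growth factor genes and their receptors 8 rose and 5 fell, the first near the share over all genes (27.5%) and the second below it (25.2%). Ereg, an EGF family ligand, read 7.37, 5.43, 5.76, 6.97 and 6.08 against 0.563, 0.7, 0.833, 0.332 and 0.237 CPM (11.6-fold, adjusted p = 1.31e-07) and Nrg1, a neuregulin that acts on heart muscle, 1.82, 1.81, 3.28, 5.02 and 4.32 against 0.563, 0, 1.07, 0.553 and 0.712 CPM (5.54-fold). Igf1 read 68.1, 52.5, 89.9, 68.6 and 102 against 47.8, 40.6, 67.3, 32.1 and 37.8 CPM (1.69-fold) and Hbegf rose 2.68-fold. Egf and Fgf1 fell 2.13- and 1.55-fold, and Fgf2 was not called.

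Several genes of the circadian clock and its output were lower. Of 19 tested 10 fell and 2 rose (25.2 and 27.5% over all genes). Dbp, a transcription factor that the clock drives strongly, read 6.79, 6.79, 10.4, 14.9 and 8.56 against 31.5, 35.2, 41.1, 27.4 and 22.2 CPM, 3.32-fold lower (adjusted p = 3.06e-05). Nr1d1, the repressor REV-ERB alpha, read 26.5, 37.2, 43.3, 27.9 and 33.9 against 73.1, 91.3, 87.7, 96 and 77.5 CPM (2.52-fold) and Hlf, a relative of Dbp, 12.4, 14.2, 15.2, 15.4 and 10.005 against 31.2, 33.6, 36.4, 33.8 and 31 CPM (2.47-fold). Their relative Tef read 53.4, 66.4, 57.4, 88.3 and 62.4 against 128, 113, 126, 103 and 117 CPM and fell 1.79-fold. The E-box of the clock, CACGTG, stood over 250 bases in 5 of 16 matched genes of the list (31.2%) and in 6.86% of all genes with promoters. It is in capitals in the 150 bases before a RefSeq start of Tef, at chr15:81811264-81811413 (plus strand), 1 of its annotated starts.
Tef: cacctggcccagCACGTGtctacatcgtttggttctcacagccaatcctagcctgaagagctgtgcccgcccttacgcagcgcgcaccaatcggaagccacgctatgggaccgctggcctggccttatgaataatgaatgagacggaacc
The labels do not give the hour at which hearts were taken, and Per2 was not called at 4.59, 7.52, 3.81, 8.46 and 4.8 against 13.3, 4.55, 7.26, 3.54 and 4.51 CPM. Bhlhe40 and Nfil3, which also answer to low oxygen and cytokines, rose 1.45- and 1.34-fold.

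Of 17 imprinted and fetal growth genes 6 rose and 3 fell, not far from the shares over all genes (27.5 and 25.2%). H19, a fetal noncoding RNA, read 209, 135, 197, 295 and 286 against 77.4, 95.7, 126, 71.6 and 76.7 CPM (2.51-fold, adjusted p = 0.000362), Mest 41.7, 40.7, 34.2, 54 and 61.2 against 9.01, 7.47, 10.8, 6.31 and 10.4 CPM (5.27-fold) and Rian 43.1, 28.3, 39.3, 44.9 and 36.2 against 13.6, 13.9, 22.7, 10.6 and 11.2 CPM (2.66-fold). Of 14 listed long noncoding RNAs that were tested 8 rose and 1 fell (27.5 and 25.2% over all genes), whereas of all 143 intergenic noncoding genes tested 22 rose and 43 fell. Dnm3os, host of microRNAs in fibroblasts, rose 3.17-fold (9.66, 4.98, 9.04, 7.9 and 6.4 against 3.83, 0.817, 3.1, 0.664 and 3.56 CPM) and the small nucleolar RNA host Snhg15 2.4-fold (3.73, 2.44, 4.25, 3.9 and 2.16 against 1.69, 1.87, 1.55, 1.11 and 0.594 CPM). Mhrt, transcribed beside the myosin heavy chains, fell 2.35-fold (12.6, 12.1, 14.5, 10.3 and 11 against 20.4, 25.7, 38.3, 34.5 and 23.6 CPM). The nuclear Malat1 was not called at 541, 315, 533, 331 and 363 against 288, 261, 764, 405 and 392 CPM. Dnm3os and Mhrt overlap other genes on the opposite strand, and no source used here gives the strand setting of the counting, so that reads of the partners cannot be told apart.

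Outside the lists, the largest rises among well-measured coding genes (mean of at least 10 CPM, no overlap of the groups) were in Serpinb1a, Star and Lrp8. Serpinb1a, an inhibitor of neutrophil elastase, read 140.1, 121, 109.8, 85.3 and 151 against 9.46, 12.8, 15.6, 11 and 8.31 CPM (10.6-fold, adjusted p = 4.51e-08), in a family whose member Serpinb1c is similar in sequence. Star, which carries cholesterol into mitochondria for steroid synthesis, read 49.3, 33.8, 24, 31.7 and 40.4 against 2.81, 3.85, 4.05, 3.21 and 3.68 CPM (10.2-fold). Lrp8, a receptor for apolipoprotein E and reelin, read 28, 16.8, 22.9, 22.9 and 26 against 2.25, 2.8, 2.5, 1.88 and 2.61 CPM (9.66-fold). The other 12 of the 15 rose 5.3- to 7.14-fold. They were Gdf6, a bone morphogenetic protein, the proliferation genes Foxm1 and Pclaf, Abcc3, and genes of myeloid cells or signalling. The last were Slfn4, Ms4a7, Ms4a6d, Lat2, Mpeg1, Fgr, Tlr13 and Basp1. The largest falls were in Ky, a muscle protease (4.59, 6.97, 9.04, 6.23 and 6.16 against 35, 33, 36, 34.2 and 33.1 CPM, 5.18-fold, adjusted p = 2.17e-08), in Lgals4, a galectin best known from gut (4.5, 5.16, 5.4, 4.18 and 2.88 against 24.3, 14.4, 15.6, 30.3 and 22.6 CPM, 4.85-fold), and in Ces1d, a lipase of fat and liver (23.8, 44.9, 35.8, 28.4 and 24.5 against 128, 153, 129, 143 and 142 CPM, 4.41-fold). Muscle metabolism and calcium release supplied several of the other 12, the thioesterase Acot1, the muscle phosphatase Fbp2, the glycerol channel Aqp7, the carrier Slc25a42, the calcium channel Cacna1s and the sarcoplasmic reticulum protein Hrc, with Efnb3, Lingo3, Slc26a10, Tmem82, Pfkfb1 and Gpr22, from 2.95- to 4.11-fold lower. Among noncoding genes by the same rule AI662270 rose most (23.2 against 5.06 CPM, 4.57-fold), followed by Ifi30, which this annotation lists as noncoding although it encodes a lysosomal thiol reductase (3.67-fold), 2410006H16Rik, Gm26917 and Hectd2os. Among those with the largest falls were 2310040G24Rik, Atcayos, Gm19461 and Lsmem2, the last counted as noncoding by this annotation's class alone. Several of these lie opposite another gene, so that the partners cannot be told apart without the strand setting: Hectd2os lies opposite Hectd2, Gm19461 opposite Plekha6, and Atcayos opposite Atcay and Nmrk2, of which Nmrk2 rose.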

How the data were processed

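RNA-seq libraries of mouse hearts were compared at day 4, 5 infarct against 5 sham, as the labels group them. Each library has 1 deposited file of unnormalized counts for Ensembl genes, which the authors made with bcl2fastq 2.20.0 and featureCounts on GRCm38, per the submitters' processing notes. No source used here gives the aligner, the featureCounts version or whether reads were counted by strand. Totals ran from 8491949 to 11532784 counts, so that 0 counts allow a level of up to 3 counts (counting error only). That is 0.26 to 0.353 CPM depending on the library, over totals without the TMM factor. The limit does not apply to the 37 mitochondrially encoded genes, which have 0 counts in each of the 10 files of day 4. Symbols and positions came from a GENCODE annotation of GRCm38 that names 97.5% of identifiers and 99.9% of counts.

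The 10 libraries were fitted alone in edgeR 4.0.16 (R 4.3.3) by the quasi-likelihood F test (robust, 2-sided), after TMM scaling and a filterByExpr low-count filter set to 10 per library and 15 in total. Adjusted p-values are Benjamini-Hochberg over the 14410 genes tested. CPM are counts over the library size times its TMM factor, SDs are over 5 libraries, and fold changes are edgeR's. The fit was tested on simulated data. Promoter stretches came from RefSeq for GRCm38.p6.

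The members, the 42 gene lists and the 11 marker lists (Snhg1, Snhg4, Snhg8 and Muc16 matched no gene) were chosen with earlier results of these data known, and lists share some genes. Of 1015 different listed genes 963 were tested, and 499 were higher and 224 lower. From each list the text names the first gene, called members of at least 1 CPM with the largest changes, members called against the majority and members not called. Some further members were named for their role after their values were seen. Outside the lists it names the 15 coding and up to 5 noncoding genes per direction with the largest changes among called genes of at least 10 CPM without overlap. Some genes that these rules select are not reported here. Alternatives were DESeq2 1.42.0, limma 3.58.1 voom with sample weights, median-ratio factors, other filters, a test against 1.5-fold, a replicate block, all 30 libraries, and fits without single libraries or without sham replicates 2 and 3. Figures were drawn with matplotlib 3.10.9.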

Additional observations from a re-analysis of the deposited data

Results flagged for a closer look

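For the named genes, each group of 5 libraries was searched for 1 library far from the other 4, where its gap to the nearest value exceeds 0.71 of the group's range. This held in 40 of 690 groups of values (5.8%), and chance alone gives about 1 in 20. The shares of the range taken by the gap follow, and no explanation was tested. Infarct replicate 2 stood apart as highest for Adra1a (0.718), Aqp7 (0.75), Gata4 (0.797) and Nfil3 (0.717) and as lowest for Ctsk (0.718), Itgb2 (0.816) and Nppa (0.759). Infarct replicate 3 stood apart as highest for Scn4b (0.721). Infarct replicate 4 stood apart as highest for Chil3 (0.733). Infarct replicate 5 stood apart as highest for Cilp (0.773), Edem1 (0.724), Gdf6 (0.747), Kif11 (0.857), Loxl2 (0.798) and Mcm2 (0.729) and as lowest for Cox7a1 (0.886) and Cox8b (0.813). Sham replicate 1 stood apart as highest for Acot2 (0.822), Col8a1 (0.752), Fbp2 (0.852), P4ha2 (0.716), Pdk4 (0.903), Postn (0.75), Scn4b (0.861) and Ucp3 (0.764) and as lowest for Timd4 (0.718) and Tnni2 (0.828). Sham replicate 2 stood apart as highest for Crct1 (1). Sham replicate 3 stood apart as highest for Col5a3 (0.823), Malat1 (0.713), Mki67 (0.83), Pfkp (0.804), Rian (0.73), Scara5 (0.87), Syk (0.812), Tnc (0.8) and Tnnt3 (0.746) and as lowest for Acadm (0.77), Acat1 (0.849) and Fdft1 (0.741).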

How the results depend on the processing

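Under 7 other settings (DESeq2, 1 fit of all 30 libraries, limma voom with sample weights, a mean of at least 1 CPM, median-ratio factors, no filter on low counts, and the replicate number as a block) and without sham replicates 2 and 3, the 4 counts over all genes stayed within 1.5 times those reported. Tested against a fold change of at least 1.5, 1493 genes were higher and 653 lower, since smaller changes cannot pass that test. Leaving out each library in turn gave 3600 to 4097 genes higher, 3225 to 3716 lower, 1369 to 1650 at least 2-fold higher and 435 to 556 at least 2-fold lower. Libraries of the same replicate number did not deviate together (correlations of same-numbered deviations from -0.22 to 0.23, and no library matched its own number best). That check cannot exclude a pairing, since other differences between libraries enter the same deviations. The replicate block gave 3861 genes higher, 3489 lower, 1431 at least 2-fold higher and 487 at least 2-fold lower.

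Of 301 named genes that were called, none changed sign in any of these settings. DESeq2, limma voom and median-ratio factors ended no call among them, the filter on a mean of 1 CPM ended 1 (Efemp1), the block 2 (Gata4 and Efemp1), the fit of all 30 libraries 2 (Gata4 and Tnni2), no filter 3, sham replicates 2 and 3 left out 3 (Dnajc3, Fbln1 and Efemp1), the test against 1.5-fold 52, and leaving out 1 library 1 to 4. Signs changed for 7 named genes that were not called, and the cause was not tested. Over single libraries left out the log2 fold changes ran from -0.11 to 0.28 for Cd74, -0.05 to 0.19 for Cenpf, -0.15 to 0.30 for Malat1, -0.07 to 0.30 for Myh7, -0.12 to 0.03 for Nqo1, -0.08 to 0.21 for Pdgfra and -0.36 to 0.23 for Per2. With limma voom they were -0.05 for Cenpf and 0.22 for Malat1, without sham replicates 2 and 3 -0.08 and 0.20, and with the block 0.05 for Malat1. At these depths 84.7% of genes changed 2-fold and 97.9% of those changed 3-fold were called in simulated data with 200 changed genes, far fewer than were called here.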

Other observations

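The genes in this paragraph were chosen after their values were seen. Crct1 (ENSMUSG00000027913, chr3:93014205-93015687 in GRCm38) is on the same chromosome as Sprr1a (which starts at 92483952). It read 14.7, 8.15, 6.38, 10.04 and 7.84 CPM in infarct libraries, 0.117 CPM in sham replicate 2 and 0 in the other 4 sham libraries. There 0 counts allow up to 0.302 to 0.353 CPM depending on the library, limits taken before the trimmed-mean scaling. Over single libraries left out the log2 fold change of Crct1 ran from 7.82 to 9.57. Dio3, the enzyme that inactivates thyroid hormone, read 2.39, 2.72, 2.39, 2.14 and 3.52 CPM in infarct and at most 0.119 CPM in sham libraries. Dio2, which makes the active hormone and also stands in the brown adipocyte marker list, was also higher (2.83-fold, 25.9, 10.1, 38.5, 21.5 and 24.8 against 10.1, 7.82, 13, 5.42 and 6.41 CPM, adjusted p = 0.00344), and the thyroid hormone receptor genes Thra and Thrb were 1.54- and 1.73-fold lower. Tnnt3, the troponin T of fast skeletal muscle and a member of that marker list, read 20.6, 9.78, 15.6, 23.1 and 21.5 CPM in infarct and 0.563, 0.934, 2.02, 0.664 and 0.712 CPM in sham libraries, 18.4-fold higher (adjusted p = 3.72e-07). The myosins of fast skeletal muscle, Myh1 and Myh4, read at most 0.238 and 0.113 CPM in these 10 libraries. Of the same marker list, the fast troponin I gene Tnni2 read 4.02, 2.9, 4.7, 6.23 and 5.84 against 1.24, 2.22, 2.14, 2.32 and 2.14 CPM (2.35-fold higher, adjusted p = 0.000654, but 0.235 in the fit of all 30 libraries), and Ckm, the creatine kinase of heart and skeletal muscle, was 2.45-fold lower. Retnla, a secreted protein of alternatively activated macrophages and of lung and fat, read 0.383, 0.543, 0.62, 0.836 and 0.88 CPM in infarct and 1.24, 8.4, 11.8, 3.21 and 4.87 CPM in sham libraries, a log2 fold change of -3.14 that was -2.22 without sham replicates 2 and 3.

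By gene class, 266 of 769 tested processed pseudogenes were called higher and 92 lower, where the shares over all genes were 27.5 and 25.2%. Of 140 antisense genes 17 were higher and 34 lower, and of 143 intergenic noncoding genes 22 were higher and 43 lower. Pseudogenes share sequence with their parent genes and antisense genes overlap theirs, so these counts are uncertain.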
